A study of Mus musculus with 7 samples.

Results

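The genes described here are 36 genes of glycolysis and of the cellular response to low oxygen, taken by name from the 49585 gene rows of each deposited table. They fall into 17 glycolytic enzymes and 19 other genes, which are further targets of the hypoxia-inducible factors (HIFs), the HIF alpha subunits and the enzymes that control them. All 36 names were found, each on 1 row, and all 36 passed the filter on low counts that left 13639 genes for testing. Expression was compared between 4 libraries of MS-1 cells that overexpress LPL (lipoprotein lipase, which hydrolyses triglyceride carried in blood) and 3 libraries of wild-type MS-1 cells labelled control. MS-1 is an established mouse endothelial line from pancreatic islets, and both groups were grown in DMEM. The labels do not say how LPL was introduced, give no vector-only control, and do not state whether replicates came from separate cultures or whether the LPL cells are 1 clone, so the p-values rest on library-to-library spread that may be technical.

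Glycolysis converts glucose to pyruvate in the cytosol. Hexokinase traps the imported sugar, phosphofructokinase commits it to breakdown, the enzymes from glyceraldehyde phosphate dehydrogenase to pyruvate kinase return ATP, and lactate dehydrogenase regenerates the NAD needed to keep the path running. Endothelial cells draw most of their ATP from this pathway even when oxygen is present. HIF1A and EPAS1 (also called HIF-2 alpha) are hydroxylated by the EGLN prolyl hydroxylases while oxygen is available, which marks them for destruction through VHL. When oxygen falls they pair with ARNT, bind a short core sequence in DNA and raise many glycolytic genes together with transporters, mitophagy receptors and their own hydroxylases.

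Between 24328418 and 29210847 reads in the sense orientation were counted per library. Lpl itself, which checks the labels, had 139.8 ± 4.42 TPM (transcripts per 1000000, scaled for gene length) in the LPL overexpression libraries (SD, n = 4) and 0.0314 ± 0.0346 TPM in the controls (SD, n = 3). The LPL overexpression libraries also carried genes of pigment cells: all 16 genes of a marker list were higher, their TPM summed to between 2391 and 2528 in these libraries against between 16.2 and 16.7 in the controls, and 7 of them (Tyr, Tyrp1, Dct, Mlana, Oca2, Sox10 and Mlph) had no read in any control. Over all genes tested 21.9% were higher and 21.3% lower, the background for each of these marker lists. Of 15 tested endothelial markers 2 were higher and 9 lower, or 13.3% and 60%. The endothelial markers summed to between 4713 and 4849 TPM under LPL overexpression against between 5198 and 5205 TPM in the controls. Pecam1, Cdh5 and Kdr were expressed in all 7 libraries, while Sox17 had no read in any. Cldn5 was absent from both groups but for 1 read in control replicate 1. Vwf stood at 0.282 ± 0.00910 TPM in the LPL overexpression libraries and 0.241 ± 0.0235 TPM in the controls. Markers of other cell types were mostly too low to test. Of fibroblast and mural markers 3 of 5 tested were higher, with sums between 3.75 and 4.09 TPM under LPL overexpression against between 2.37 and 2.55 TPM in the controls. Of blood and macrophage markers Cd68 was higher and Fcer1g lower, with sums between 251 and 275 TPM under LPL overexpression against between 186 and 202 TPM in the controls. Nearly all of these sums was Cd68, at 261 ± 11.1 TPM with LPL overexpression and 194 ± 8.67 TPM in the controls. Ptprc, Adgre1, Csf1r, Lyz2 and Itgam were too low to test in either group. Of islet and exocrine markers 1 was higher and 1 lower among 3 tested, with sums between 24.8 and 28.0 TPM under LPL overexpression against between 26.1 and 28.4 TPM in the controls. The part of these markers in the values given here was not tested, and in bulk RNA fewer cells of a type and less RNA per cell cannot be told apart.

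The DNA core bound by HIF is usually written as ACGTG or GCGTG, and both forms were searched on both strands in the RefSeq promoter windows of 300 bases (250 before to 50 after each start, GRCm38.p6). Windows were found for 33 of the 36 genes, all but Bnip3l, Epas1 and Ndrg1, with Ero1l matched under its current symbol Ero1a. At least 1 of the cores was present for 30 of these 33 genes, against 46.7% of the 27025 genes in the table. Those 27025 genes were not limited to genes expressed here, as all 36 members are. Genes with several windows, such as Pfkm with 4, also have more room for a core. No background matched for expression or window number was computed, so the difference cannot be read as particular to HIF genes. Cores stood in the windows of 10 of 11 genes called higher, 11 of 11 called lower and 9 of 11 not called. The 250 bases before the start are shown, 5′ to 3′ on the gene's strand with the cores of either strand in capitals, for 3 genes that were higher and 2 that were lower with LPL overexpression.
Ldhb, higher (chr6:142507958-142508207, minus strand): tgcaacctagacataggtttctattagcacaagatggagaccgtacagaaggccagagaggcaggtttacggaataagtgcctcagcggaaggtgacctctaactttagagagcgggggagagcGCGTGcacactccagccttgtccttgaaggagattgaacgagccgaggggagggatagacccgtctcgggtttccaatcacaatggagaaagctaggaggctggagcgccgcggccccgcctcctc
Hk2, higher (chr6:82774455-82774704, minus strand): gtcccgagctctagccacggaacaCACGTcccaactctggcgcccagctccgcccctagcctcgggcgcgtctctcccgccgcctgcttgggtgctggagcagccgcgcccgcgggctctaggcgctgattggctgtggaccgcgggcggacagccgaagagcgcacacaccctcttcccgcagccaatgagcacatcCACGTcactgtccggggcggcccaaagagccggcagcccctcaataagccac
P4ha1, higher (chr10:59323046-59323295, plus strand): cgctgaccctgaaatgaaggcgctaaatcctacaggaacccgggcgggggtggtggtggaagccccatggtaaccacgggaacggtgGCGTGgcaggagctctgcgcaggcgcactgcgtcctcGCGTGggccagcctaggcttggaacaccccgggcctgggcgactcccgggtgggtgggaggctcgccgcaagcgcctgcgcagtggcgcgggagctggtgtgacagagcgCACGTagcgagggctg
Egln3, lower (chr12:54203875-54204124, minus strand): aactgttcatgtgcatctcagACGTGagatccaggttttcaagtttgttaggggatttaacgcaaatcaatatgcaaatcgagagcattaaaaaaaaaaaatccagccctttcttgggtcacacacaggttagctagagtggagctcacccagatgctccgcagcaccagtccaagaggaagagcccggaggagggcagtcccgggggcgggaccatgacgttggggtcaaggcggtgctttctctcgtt
Slc16a1, lower (chr3:104638414-104638663, plus strand): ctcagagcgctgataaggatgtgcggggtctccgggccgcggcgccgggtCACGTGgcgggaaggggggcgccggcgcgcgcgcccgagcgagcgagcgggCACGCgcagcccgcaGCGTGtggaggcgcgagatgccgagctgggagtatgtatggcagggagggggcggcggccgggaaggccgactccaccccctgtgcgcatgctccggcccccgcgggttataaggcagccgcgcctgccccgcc
These 5 genes are examples, and each of their windows held at least 1 core. The genes with no core, Eno2 (higher) and Gpi1 and Tpi1 (not called), are not shown. Ldhb had a GCGTG that begins 126 bases before the start, Hk2 had ACGTG on the opposite strand at 226 and 52 bases, and Egln3 had ACGTG at 229 bases. P4ha1 had GCGTG at 163 and 126 bases and an opposite-strand ACGTG at 16 bases. In Slc16a1 the ACGTG lies within the palindrome CACGTG, so it reads on both strands from 200 and 199 bases, and a GCGTG core stands on the opposite strand at 149 and on the gene's strand at 134 bases. CACGTG, the E-box that other factors also bind, was in 7.15% of all windows, ACGTG in 19.6% and GCGTG in 32.4%. A match describes the letters only, not a bound site.

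With LPL overexpression the glycolytic enzymes were more often higher than lower, and the other HIF genes more often lower than higher, mostly by small amounts. Of the 17 glycolytic enzymes 8 rose, 3 fell and 6 did not pass (edgeR's quasi-likelihood test with Benjamini-Hochberg adjustment over all genes, threshold 0.05). Their median log2 fold change was 0.05. Of the 19 other genes 4 rose, 9 fell and 6 did not pass, with a median of -0.12. Over all genes tested 43.2% were called, 21.9% higher and 21.3% lower, with a median of 0.00. Among genes with a mean of at least 10 CPM (counts per 1000000), where small changes are easier to detect, 48.4% were called, 21.1% higher and 27.3% lower. The share called higher was thus 47.1% among the glycolytic enzymes and 21.1% among the other HIF genes, and the share called lower 17.6% and 47.4%. The 3 enzymes that passed with at least 1.5-fold were Ldhb, Aldoc and Eno2, and 0 of the other 19 genes reached that size, where 8.47% of all genes tested did.

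The split among the enzymes depends on how libraries are scaled. TPM is scaled to the total of each library, and on log2(TPM + 0.5) the median of all genes tested stood at 0.027, against 0.002 in the edgeR fit. With upper-quartile factors, or with limma on log2(TPM + 0.5), 10 enzymes were higher and 1 lower. Of the genes called, 59.2% were higher under upper-quartile scaling and 61.3% with limma on log2(TPM + 0.5), against 50.7% in the edgeR fit.

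**Figure D1:**
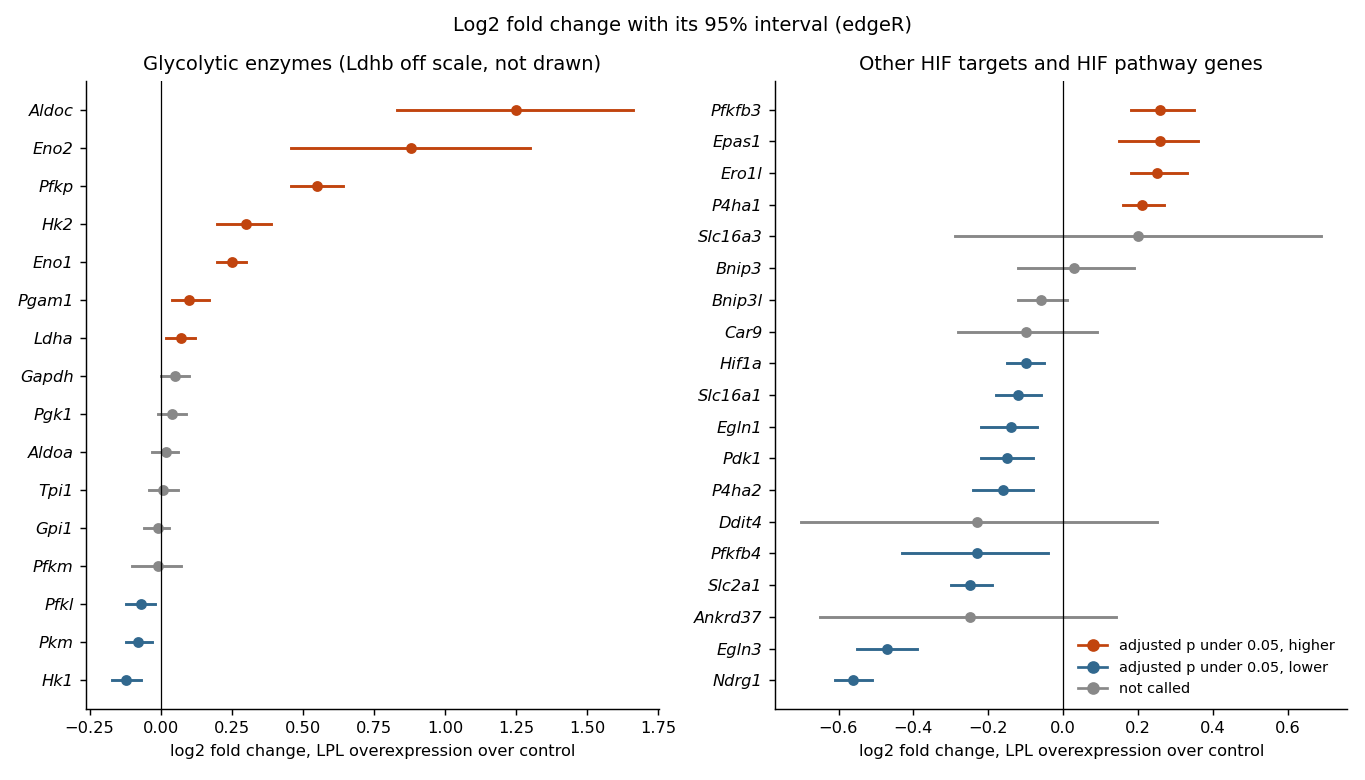
Log2 fold change of LPL overexpression over control (x axis, edgeR) with its 95% interval (lines) for 16 glycolytic enzymes (left; Ldhb, at 4.39, lies off the scale) and 19 other HIF targets and HIF pathway genes (right). Aldoc, Eno2 and Pfkp stand farthest to the right of 0 on the left panel, and Ndrg1 and Egln3 farthest to the left on the right panel.

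The glycolytic enzymes ranged from abundant to barely detected. Aldoa, Pkm, Gapdh, Ldha, Tpi1 and Pgk1 were the 6 highest of the 36 genes in both groups. The lowest in the controls were Aldoc, Ldhb, Eno2 and Slc16a3, with means of 0.805, 0.775, 0.551 and 0.448 TPM. Summed over the 17 enzymes the level was 6737 ± 51.9 TPM in the LPL overexpression libraries (SD, n = 4) and 6504 ± 57.8 TPM in the controls (SD, n = 3). The sums ran from 6704 to 6814 TPM in the LPL overexpression libraries and from 6466.5 to 6571 TPM in the controls, with no overlap. Of the 6 most abundant enzymes, Aldoa, Gapdh, Tpi1 and Pgk1 did not pass in edgeR. On log2(TPM + 0.5) the median of all genes tested stood at 0.027, and the sums were not tested. Over the other 19 genes the sum was 1034 ± 11.4 TPM in the LPL overexpression libraries and 1162.5 ± 4.95 TPM in the controls, also without overlap. Ndrg1 and Slc2a1, the most abundant of the 19 in the controls, both lay lower with LPL overexpression.

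**Figure D2:**
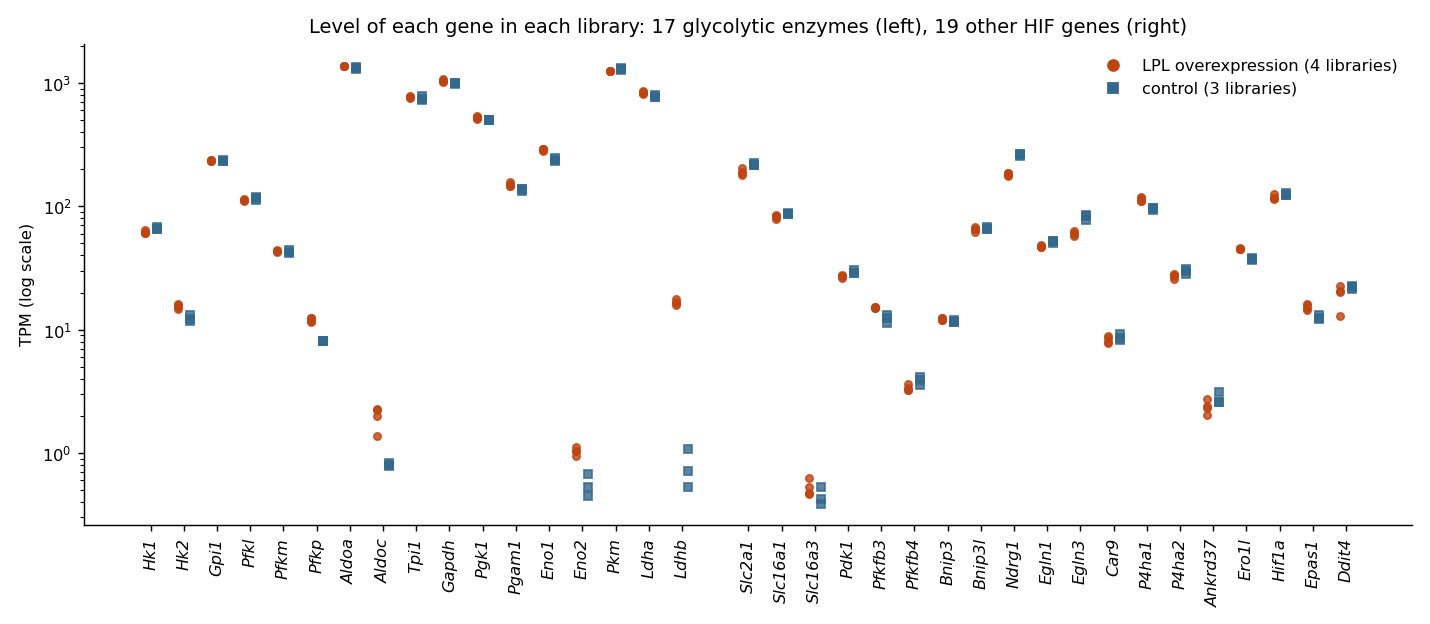
TPM on a log scale (y axis) of each of the 36 genes in each of the 4 LPL overexpression libraries (circles) and 3 control libraries (squares), with the glycolytic enzymes on the left and the other HIF genes on the right. Levels span from under 1 TPM for Slc16a3 to 1368 TPM for Aldoa with LPL overexpression, and Ldhb is the gene whose groups lie farthest apart.

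At the entry of the pathway the hexokinases moved in opposite directions. Hk1, the constitutive hexokinase bound to mitochondria, had 62.5, 60.8, 61.0 and 64.7 TPM in LPL overexpression replicates 1 to 4, against 65.9, 67.5 and 65.7 TPM in control replicates 1 to 3. Every LPL overexpression library lay below every control, with a log2 fold change of -0.12 (standard error 0.03, edgeR adjusted p = 2.07e-04). Hk2, the inducible hexokinase, had 16.3, 14.8, 15.1 and 15.7 TPM in the LPL overexpression libraries, against 13.2, 12.1 and 11.8 TPM in the controls. It rose with a log2 fold change of 0.30 (standard error 0.05, edgeR adjusted p = 1.21e-06) and no overlap. Groups that did not overlap in TPM were found for 44.9% of all genes tested, 27.3% with LPL overexpression above and 17.6% below. Of the 17 enzymes 11 lay wholly above the controls and 2 wholly below, and of the 19 other genes 4 and 7.

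Of the 3 phosphofructokinase genes, the platelet-type Pfkp rose, Pfkl was slightly lower and Pfkm did not pass. Pfkp (chromosome 13, 6579768 to 6648777, minus strand, mm10) had 11.5, 11.8, 12.4 and 12.3 TPM in the LPL overexpression libraries, against 8.17, 8.05 and 8.04 TPM in the controls. All 4 libraries lay above all controls, a log2 fold change of 0.55 (standard error 0.04, edgeR adjusted p = 2.87e-15). Pfkl, the liver-type enzyme and the main form here, averaged 113 ± 1.46 TPM with LPL overexpression and 116 ± 3.45 TPM in the controls. Its log2 fold change of -0.07 (adjusted p = 0.0305 in edgeR) passed, but the groups overlapped and the call ended in 11 of 17 alternative settings, where adjusted p ranged from 0.0149 to 0.243. Among these were leaving out LPL overexpression replicate 2 (0.0715), 3 (0.0787) or 4 (0.0602) and control replicate 1 (0.120) or 3 (0.179). Pfkm, the muscle-type form, had a log2 fold change of -0.01 with a 95% interval from -0.10 to 0.07.

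The remaining enzymes of upper glycolysis showed little difference apart from Aldoc. Gpi1, the isomerase that follows hexokinase, had a log2 fold change of -0.01 (95% interval -0.06 to 0.03) and Tpi1, triose phosphate isomerase, of 0.01 (-0.04 to 0.06). Aldoa, the main aldolase, averaged 1368 ± 6.91 TPM in the LPL overexpression libraries and 1328 ± 16.6 TPM in the controls. Its TPM groups did not overlap, yet in edgeR its log2 fold change was 0.02 (-0.03 to 0.06) and did not pass (adjusted p = 0.639). Aldoc, an aldolase best known from brain, had 1.99, 1.37, 2.27 and 2.24 TPM in the LPL overexpression libraries, against 0.784, 0.831 and 0.802 TPM in the controls. LPL overexpression replicate 2 was the lowest of its group and still above the controls, and the log2 fold change was 1.25 (standard error 0.21, edgeR adjusted p = 1.36e-06).

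In lower glycolysis Eno1 rose clearly and the abundant enzymes around it hardly moved. Eno1, the main enolase, had 289, 291, 283 and 289 TPM in the LPL overexpression libraries, against 236, 233 and 246 TPM in the controls, with no overlap. Its log2 fold change was 0.25 (standard error 0.03, edgeR adjusted p = 5.70e-12). Eno2, the neuronal enolase, stood far lower, with 1.03, 0.953, 1.12 and 1.04 TPM in the LPL overexpression libraries, against 0.673, 0.451 and 0.530 TPM in the controls. It rose with a log2 fold change of 0.88 (standard error 0.21, edgeR adjusted p = 4.46e-04). Pgam1, phosphoglycerate mutase, averaged 150.4 ± 5.75 TPM with LPL overexpression and 137 ± 3.08 TPM in the controls, a log2 fold change of 0.10 (adjusted p = 0.00969 in edgeR). The call of Pgam1 ended without control replicate 1 (adjusted p = 0.104) or LPL overexpression replicate 1 (0.0604), within a range of 0.00134 to 0.104 over 17 alternatives.

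Gapdh, Pgk1 and Pkm were near the limit of what these libraries could separate. Gapdh, which oxidises glyceraldehyde phosphate and is often used as a reference gene, had a log2 fold change of 0.05 (95% interval 0.00 to 0.10, adjusted p = 0.0883 in edgeR). Pgk1, the first ATP-producing enzyme, had 0.04 (-0.01 to 0.09, adjusted p = 0.151). Both passed with upper-quartile factors (adjusted p = 0.0162 for Gapdh and 0.0296 for Pgk1), and their ranges over 17 alternatives were 0.0149 to 0.224 for Gapdh and 0.0166 to 0.347 for Pgk1. Gapdh also passed without LPL overexpression replicate 4 (adjusted p = 0.0454). Pkm, pyruvate kinase M, averaged 1249.5 ± 5.90 TPM in the LPL overexpression libraries and 1292 ± 27.7 TPM in the controls, a log2 fold change of -0.08 (standard error 0.02, edgeR adjusted p = 0.0103). That call ended in 5 of 17 alternatives, within a range of 0.00164 to 0.145. These were upper-quartile factors (adjusted p = 0.0940), the 3 limma settings on TPM (0.0594, 0.0597 and 0.0615) and leaving out control replicate 3 (0.145). Counts per gene do not separate the M1 and M2 forms of Pkm. A gene row inside it on the same strand, RP23-320D23.6, held between 2265 and 2632 reads under LPL overexpression against between 2295 and 2634 in the controls.

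Lactate dehydrogenase showed the largest change of all 36 genes, in its minor subunit. Ldhb (chromosome 6, 142490249 to 142507957, minus strand, mm10) encodes the heart-type subunit, whose tetramer favours the conversion of lactate to pyruvate. It had 196, 247, 189 and 216 reads in LPL overexpression replicates 1 to 4, against 14, 7 and 9 reads in control replicates 1 to 3. That is 16.9, 17.6, 15.9 and 16.5 TPM in the LPL overexpression libraries, against 1.09, 0.526 and 0.714 TPM in the controls. The 4 libraries with high Ldhb are tight among themselves, and the log2 fold change was 4.39 (95% interval 4.06 to 4.73, adjusted p = 2e-28 in edgeR). The controls held only 30 Ldhb reads together, against 848 with LPL overexpression. The ratio of pooled CPM was 21.9, with an exact 95% counting interval of 15.2 to 32.6. On the fold scale this is wider than the edgeR interval, which is thus too narrow for so few control reads. Ldha, the muscle-type subunit, averaged 839 ± 17.4 TPM with LPL overexpression and 785 ± 15.1 TPM in the controls. Its log2 fold change of 0.07 (adjusted p = 0.0217 in edgeR) did not hold without control replicate 1 (adjusted p = 0.132) or control replicate 2 (0.105), within a range of 0.00271 to 0.132. The rises of Ldhb, Aldoc, Eno2 and Pfkp occurred in the libraries in which the 16 pigment cell markers summed to at least 2391 TPM, and their part in these rises was not tested.

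**Figure D3:**
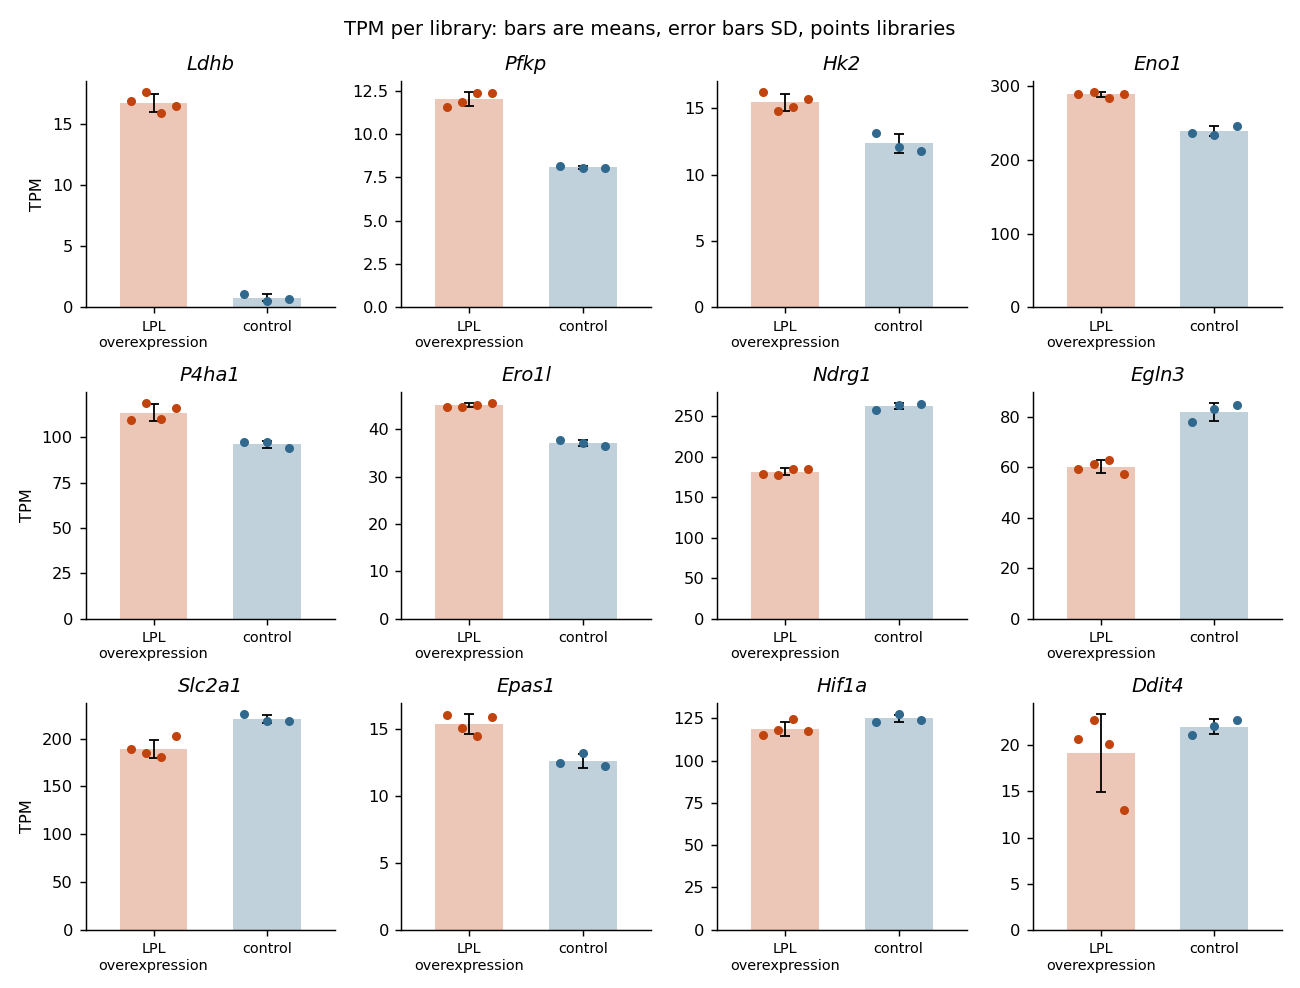
TPM (y axis, from 0) of 12 of the genes in the 4 LPL overexpression libraries (left bar) and the 3 controls (right bar), with bars as means, error bars as SD and points as libraries. Groups do not overlap for Ldhb, Pfkp, Hk2, Eno1, P4ha1, Ero1l, Ndrg1, Egln3, Slc2a1 and Epas1, overlap for Hif1a, and for Ddit4 LPL overexpression replicate 4 lies apart at 13.0 TPM. The 12 genes were picked as examples, and 44.9% of all genes tested had groups that did not overlap.

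Shares of related forms were taken over the members alone, since TPM is per length and lets forms be set side by side within a library. They did not all move one way: Hk2, Pfkp, Aldoc, Eno2 and Ldhb, each the least abundant of its set, had higher shares with LPL overexpression, while the less abundant P4ha2 and Pfkfb4 had lower ones. P4ha2 made up 19.3 ± 0.506% of P4ha1 plus P4ha2 with LPL overexpression and 23.7 ± 0.587% in the controls. Pfkfb4 made up 18.2 ± 0.614% of Pfkfb3 plus Pfkfb4 with LPL overexpression and 23.9 ± 2.35% in the controls. The share of Slc16a3 beside Slc16a1 overlapped between groups. Hk2 made up 19.9 ± 0.509% of hexokinase TPM (Hk1 plus Hk2) in the LPL overexpression libraries (SD, n = 4) and 15.7 ± 0.819% in the controls (SD, n = 3), while the sum was 77.7 ± 2.27 TPM with LPL overexpression and 78.7 ± 1.10 TPM in the controls. Pfkp made up 7.16 ± 0.269% of the phosphofructokinases with LPL overexpression and 4.84 ± 0.113% in the controls, again with similar sums, of 168 ± 2.01 TPM with LPL overexpression and 167 ± 3.88 TPM in the controls. The share of Pfkm was 25.9 ± 0.257% with LPL overexpression and 25.8 ± 0.718% in the controls, and that of Pfkl 67.0 ± 0.0693% with LPL overexpression and 69.3 ± 0.727% in the controls. Ldhb reached 1.95 ± 0.0429% of lactate dehydrogenase TPM with LPL overexpression and 0.0987 ± 0.0370% in the controls. Aldoc and Eno2 stayed minor, at 0.144 ± 0.0309% of the TPM of Aldoa plus Aldoc and 0.359 ± 0.0284% of that of Eno1 plus Eno2 with LPL overexpression, against 0.0606 ± 0.00203% and 0.231 ± 0.0476% in the controls. The sum of Eno1 and Eno2 was 289 ± 3.52 TPM with LPL overexpression and 239 ± 6.71 TPM in the controls, and the lactate dehydrogenase sum 856 ± 18.1 TPM with LPL overexpression and 786 ± 15.1 TPM in the controls. The shares of Hk2, Pfkp, Aldoc, Eno2, Ldhb, P4ha2 and Pfkfb4 did not overlap between groups. For the TPM of single genes, 44.9% of all genes tested had groups that did not overlap, and no such background was computed for shares. Eno3, which is not among the 36 genes and is left out of the enolase shares, is far more abundant than Eno2, with 111 ± 6.64 TPM with LPL overexpression and 95.9 ± 3.04 TPM in the controls.

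**Figure D4:**
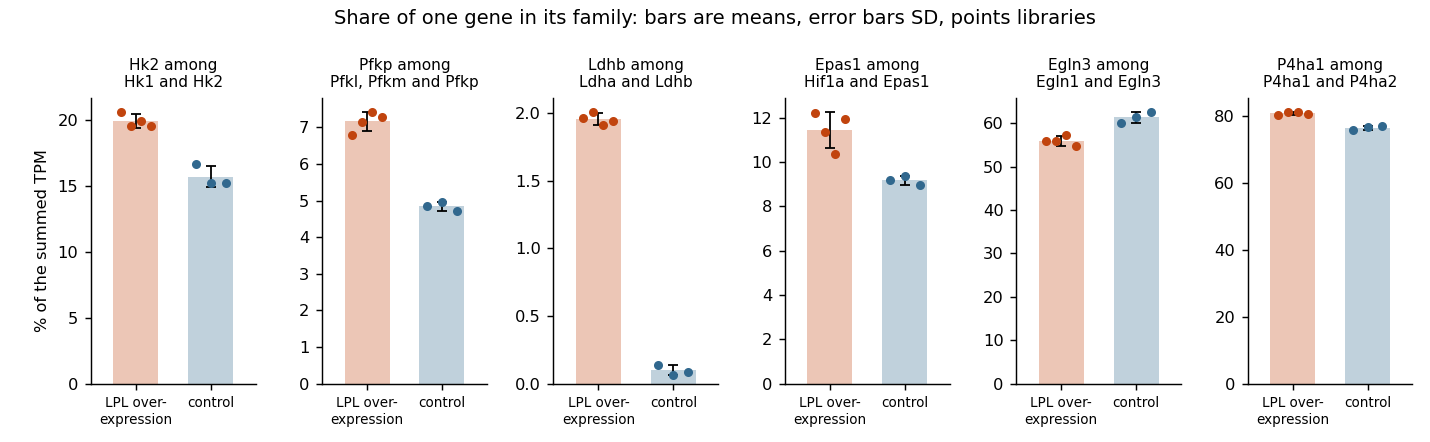
Share in percent of the summed TPM of its family (y axis, from 0) for Hk2, Pfkp, Ldhb, Epas1, Egln3 and P4ha1 in the 4 LPL overexpression libraries (left bar) and the 3 controls (right bar), with bars as means, error bars as SD and points as libraries. Egln3 is the one of the 6 with a lower share in the LPL overexpression libraries, 55.9% against 61.4% in the controls.

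Of the 3 transporters of glucose and lactate among the 36 genes, Slc2a1 and Slc16a1 fell and Slc16a3 did not pass. Slc2a1 (chromosome 4, 119108711 to 119137983, plus strand, mm10) encodes GLUT1, the main glucose carrier of endothelium. It had 189, 185, 181 and 203 TPM in the LPL overexpression libraries, against 226, 218 and 218 TPM in the controls. No library of the LPL group reached the controls, and the log2 fold change was -0.25 (standard error 0.03, edgeR adjusted p = 9.41e-10). Slc16a1, the lactate and pyruvate carrier MCT1, had 78.6, 83.1, 84.5 and 81.8 TPM in the LPL overexpression libraries, against 86.8, 88.4 and 87.3 TPM in the controls, a log2 fold change of -0.12 (standard error 0.03, edgeR adjusted p = 4.96e-04). Slc16a3, the lactate exporter MCT4, was close to absent, at 0.525 ± 0.0772 TPM with LPL overexpression and 0.448 ± 0.0748 TPM in the controls, and its interval from -0.29 to 0.69 leaves room for changes in either direction.

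The enzymes that set glycolytic flux did not move together. Pfkfb3, which makes the fructose bisphosphate activator of phosphofructokinase and is known for its role in vessel sprouting, had 15.4, 14.9, 15.1 and 15.2 TPM in the LPL overexpression libraries, against 13.2, 12.5 and 11.4 TPM in the controls. It rose with a log2 fold change of 0.26 (standard error 0.04, edgeR adjusted p = 1.28e-06). Pfkfb4, a related enzyme, averaged 3.36 ± 0.176 TPM with LPL overexpression and 3.86 ± 0.306 TPM in the controls. Its log2 fold change of -0.23 (adjusted p = 0.0450 in edgeR) lost its call in 12 of 17 alternatives, DESeq2 among them (adjusted p = 0.228), within a range of 0.0238 to 0.232. Leaving out control replicate 2 (adjusted p = 0.232) or 3 (0.107), or LPL overexpression replicate 2 (0.0932), 3 (0.0686) or 4 (0.0989), ended it too, as did the replicate block (0.0885). Pdk1, a kinase that inhibits pyruvate dehydrogenase, had 26.3, 27.4, 27.8 and 27.1 TPM in the LPL overexpression libraries, against 29.0, 28.9 and 30.6 TPM in the controls. It fell with a log2 fold change of -0.15 (standard error 0.04, edgeR adjusted p = 5.83e-04).

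Of the HIF alpha subunits, Epas1 rose and Hif1a was slightly lower. Epas1, prominent in endothelium, had 16.0, 15.1, 14.4 and 15.9 TPM in the LPL overexpression libraries, against 12.4, 13.2 and 12.2 TPM in the controls, a log2 fold change of 0.26 (standard error 0.05, edgeR adjusted p = 3.96e-05) with no overlap. Hif1a, the more abundant, had 115, 118, 125 and 117 TPM in the LPL overexpression libraries, against 123, 127 and 124 TPM in the controls. LPL overexpression replicate 3 lay within the range of the controls. The log2 fold change of Hif1a was -0.10 (standard error 0.03, edgeR adjusted p = 0.00175). That call ended in the 3 limma settings on TPM (adjusted p = 0.0810, 0.0817 and 0.0884), within a range of 3.11e-04 to 0.0884 over 17 alternatives. Epas1 made up 11.5 ± 0.811% of the TPM of the pair with LPL overexpression and 9.16 ± 0.209% in the controls. HIF activity is set largely at the protein level, which these data do not measure.

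Of the EGLN oxygen-sensing hydroxylases, Egln3 and Egln1 fell. Egln2, which is not among the 36 genes and is named after its values were seen, averaged 61.4 ± 0.563 TPM with LPL overexpression and 63.0 ± 1.62 TPM in the controls and did not pass (edgeR adjusted p = 0.166, 95% interval of its log2 fold change -0.14 to 0.01). Egln3 (chromosome 12, 54178981 to 54203860, minus strand, mm10), itself a strongly HIF-induced gene, had 59.1, 61.3, 63.0 and 57.4 TPM in the LPL overexpression libraries, against 77.8, 83.2 and 84.6 TPM in the controls. The groups were well apart, with a log2 fold change of -0.47 (standard error 0.04, edgeR adjusted p = 9.99e-15). Egln1, the main HIF hydroxylase, had 46.7, 48.5, 47.1 and 47.6 TPM in the LPL overexpression libraries, against 51.9, 52.0 and 50.6 TPM in the controls, a log2 fold change of -0.14 (standard error 0.04, edgeR adjusted p = 0.00108). Egln3 took 55.9 ± 1.06% of the TPM of the pair with LPL overexpression and 61.4 ± 1.32% in the controls.

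Among the HIF targets that modify proteins, P4ha1 and Ero1l rose while P4ha2 fell. P4ha1, a catalytic subunit of collagen prolyl hydroxylase, had 109.8, 119, 110.1 and 116 TPM in the LPL overexpression libraries, against 97.2, 97.5 and 94.1 TPM in the controls, a log2 fold change of 0.21 (standard error 0.03, edgeR adjusted p = 1.96e-08). P4ha2, the alternative subunit, had 27.1, 27.6, 25.5 and 28.3 TPM in the LPL overexpression libraries, against 31.2, 29.9 and 28.4 TPM in the controls, a log2 fold change of -0.16 (standard error 0.04, edgeR adjusted p = 5.71e-04). For P4ha2 the highest LPL overexpression library and the lowest control nearly touch. Ero1l, the oxidase that drives disulfide formation in the endoplasmic reticulum, had 44.8, 44.8, 45.3 and 45.6 TPM in the LPL overexpression libraries, against 37.8, 37.2 and 36.5 TPM in the controls, a log2 fold change of 0.25 (standard error 0.04, edgeR adjusted p = 7.16e-08). The mitophagy receptors Bnip3 and Bnip3l did not pass, with log2 fold changes of 0.03 (95% interval -0.12 to 0.19) and -0.06 (-0.12 to 0.01).

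Ndrg1 showed the largest fall of the 36 genes. Ndrg1 (chromosome 15, 66929321 to 66969640, minus strand, mm10), a growth-arrest gene widely used as a hypoxia marker, had 178, 177, 185 and 185 TPM in the LPL overexpression libraries, against 258, 264 and 265 TPM in the controls. The groups were far apart relative to their spread, with a log2 fold change of -0.56 (95% interval -0.61 to -0.51, adjusted p = 1.12e-25 in edgeR). Car9, Ankrd37 and Ddit4 did not pass. Car9, the cell-surface carbonic anhydrase, had a log2 fold change of -0.10 (95% interval -0.28 to 0.09) and Ankrd37 of -0.25 (-0.65 to 0.14). Ddit4, the stress-induced inhibitor of mTORC1, had 20.7, 22.7, 20.2 and 13.0 TPM in the LPL overexpression libraries, against 21.2, 22.1 and 22.8 TPM in the controls. Replicate 4 alone was low, and the log2 fold change of -0.23 (95% interval -0.70 to 0.25, adjusted p = 0.402 in edgeR) was -0.07 without it (adjusted p = 0.490, range 0.175 to 0.603 over 17 alternatives). The falls of Ndrg1, Egln3 and Slc2a1 occurred in the libraries in which 9 of 15 endothelial markers were lower and the pigment cell markers were high. Of all genes tested 21.3% were lower. The part of the endothelial and pigment cell markers was not tested.

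Genes of the same pathways outside the 36 were read from lists. Of 13 other glycolysis genes tested, 4 rose and 3 fell, which is 30.8% and 23.1%, near the 21.9% and 21.3% of all genes tested. Slc2a3, the glucose carrier GLUT3, had 154 reads over the 4 LPL overexpression libraries and 1 read over the 3 controls, a ratio of pooled CPM of 119 (exact 95% counting interval 21.1 to 4740.0). Eno3, the muscle enolase, had a log2 fold change of 0.19. Bpgm, the bisphosphoglycerate mutase, averaged 14.2 ± 0.221 TPM with LPL overexpression and 11.5 ± 0.530 TPM in the controls. Of 14 genes for pyruvate entry into mitochondria and its use there 4 rose and 1 fell, or 28.6% and 7.14%. Together 35.7% were called, against 43.2% of all genes tested. Pdha1, a subunit of pyruvate dehydrogenase, averaged 144 ± 2.31 TPM with LPL overexpression and 106 ± 2.89 TPM in the controls, a log2 fold change of 0.42. Pcx, pyruvate carboxylase, had a log2 fold change of 0.41 and Pdp2, a phosphatase that activates pyruvate dehydrogenase, of 0.40.

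Of 13 genes of the pentose phosphate and serine branches 7 rose and 3 fell, so 76.9% were called, 53.8% higher and 23.1% lower, against 21.9% higher and 21.3% lower over all genes tested. Shmt1, the cytosolic serine hydroxymethyltransferase, averaged 37.8 ± 1.49 TPM with LPL overexpression and 21.5 ± 0.363 TPM in the controls, a log2 fold change of 0.79. Pgd, of the oxidative pentose phosphate branch, had a log2 fold change of 0.23 and Psat1, of serine synthesis, of 0.20. Of 11 glycogen genes 5 rose and 0 fell, or 45.5% and 0%, against 21.9% higher and 21.3% lower over all genes tested. Ugp2, which makes UDP-glucose, averaged 112 ± 2.23 TPM with LPL overexpression and 75.0 ± 3.37 TPM in the controls, a log2 fold change of 0.55, and Gbe1, the branching enzyme, and Gyg, glycogenin, had 0.34 and 0.32.

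HIF regulators and further HIF targets were also called in both directions. Of 18 regulators tested, 4 rose and 6 fell, or 22.2% and 33.3%, against 21.9% and 21.3% of all genes tested and 21.1% and 27.3% of those with at least 10 CPM. Arnt2, a partner of the alpha subunits, averaged 1.76 ± 0.0947 TPM with LPL overexpression and 0.859 ± 0.0800 TPM in the controls, and Hif1an, the asparagine hydroxylase that also restrains HIF, had a log2 fold change of 0.26. Crebbp, a coactivator, had -0.18. Of 36 further HIF targets tested, 13 rose and 10 fell, or 36.1% and 27.8%, and their median log2 fold change was 0.00. Bhlhe41, a transcriptional repressor of the clock, averaged 25.4 ± 1.09 TPM with LPL overexpression and 15.6 ± 1.09 TPM in the controls. Angptl4, an inhibitor of LPL, averaged 33.0 ± 1.68 TPM with LPL overexpression and 44.7 ± 1.95 TPM in the controls. Rora, a nuclear receptor gene, was low, with 0.871 ± 0.125 TPM in the LPL overexpression libraries and 0.272 ± 0.0157 TPM in the controls. The pigment cell markers were high in the same 4 libraries, and their part in these counts was not tested.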

How the data were processed

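Total RNA of MS-1 cells was sequenced in 7 libraries made with a stranded TruSeq kit, per the labels' protocols. Per the submitters' processing notes the authors aligned reads with STAR to mm10. No version of either is given in these sources. The authors deposited whole-number counts of reads per gene for the sense orientation (between 97.02% and 97.06% of oriented reads), and the deposited TPM of that orientation sums to 1000000 in each library, per the file headers and values.

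Counts were tested with edgeR 4.0.16 (R 4.3.3; TMM, filterByExpr, robust quasi-likelihood, group as the only term) over 13639 genes. The standard error is the size of the log2 fold change divided by sqrt(F). TPM means ± SD describe levels. Alternatives used DESeq2 1.42.0 and limma 3.58.1. In a test on simulated data for this comparison (13639 genes), 20 of 50 genes changed 1.1-fold and 43 of 50 changed 1.5-fold were recovered. Another 8 unchanged genes were called. Only 50 genes at each of 1.1-, 1.25-, 1.5- and 2-fold were changed, far fewer than the 43.2% called here. The recovery therefore need not hold for the real comparison. Rows named as copies of a member (Eno1b, pseudogenes) held at most 0.497% of that member's reads. Whether reads matching several copies were dropped is not given in the sources used here. Intervals from counts cover counting error only.

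The members and lists were chosen with earlier results of these data known. Text names all 36 members, and of each related list up to 3 called genes with the lowest adjusted p.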

Additional observations from a re-analysis of the deposited data

How the results depend on the processing

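Over 17 alternative settings (other scaling, DESeq2, no filter on low counts, limma on TPM, both read orientations, copies added, a replicate block, and leaving out each library), 24 of 36 members kept their call and direction in each setting that tested them, among them 18 of the 24 called. Eno2 was not tested on TPM of genes with a mean of at least 1. On log2(TPM + 1), where a pseudocount shrinks low genes, Ldhb was at 3.33, Aldoc at 0.705 and Eno2 at 0.396. Calls that ended were those of Pfkl, Pfkfb4, Pkm, Pgam1, Ldha and Hif1a, and Gapdh and Pgk1 gained one. The 3 falling enzymes became 1 with upper-quartile factors, with limma on log2(TPM + 0.5), on log2(TPM + 1) and on TPM of genes with a mean of at least 1, and the lowest and highest counts on leaving out a library were 1 and 3. For further HIF targets the 23 calls became 15 on TPM of genes with a mean of at least 1, where fewer genes were tested. Same-numbered libraries did not deviate together (r from -0.039 to 0.019 over 3 pairs). Whether they were prepared as pairs cannot be told from these correlations. With the replicate block 5794 genes were called, against 5888 without it, and it ended the call of Pfkfb4 and of no other member.

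Uncalled values near 0 changed sign. Gpi1 was at 0.010 with upper-quartile factors and 0.014 in the 3 limma settings on TPM (adjusted p between 0.600 and 0.790). Pfkm was at 0.008 with upper-quartile factors, 0.013, 0.012 and 0.013 in the limma settings, and between -0.038 and 0.017 on leaving out a library. Bnip3 was at -0.011 with both orientations, and Tpi1 between -0.020 and 0.041 on leaving out a library, below 0 without control replicate 1 and, at -0.003, without LPL overexpression replicate 2. The gain in share, LPL overexpression minus control, was 4.21 percentage points of TPM for Hk2, 2.32 for Pfkp and 1.86 for Ldhb, and on CPM, which is not per length, 3.28, 4.69 and 0.890 (0.889 with copies added). The causes were not tested. Depth limits Slc16a3, Eno2, Aldoc, Ankrd37 and control Ldhb, which had at most 61 reads in any library outside Ldhb with LPL overexpression.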

Other observations

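By mean TPM among the 36 genes, Ndrg1 ranked 10 in the LPL overexpression libraries and 7 in the controls. Ldhb ranked 25 in the LPL overexpression libraries and 34 in the controls. In the controls Aldoa ranked 76 and Pkm 80 among all genes by TPM, while Hif1a ranked 1483 and Epas1 8086.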
